A study of Homo sapiens with 12 samples.

Results

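The enzymes that make, rearrange and break down ceramide, sphingosine and sphingosine-1-phosphate were followed at the RNA level in U251 cells, a long-established line from a human glioblastoma. Of 9 genes chosen for this (SPTLC1, SPTLC2, CERS2, SGMS1, UGCG, ASAH1, SPHK1, SPHK2 and SGPL1), 8 had a probe set that names 1 gene only, 17 probe sets in all, among 10346 such genes with 17313 probe sets. SPHK2 was not analysed here. SGPL1 and SPHK1 were chosen on their measured log2 changes from control in these same arrays, so their values are given as a description with no test. The other 7 genes were chosen for their place in the pathway.

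Cells were transfected with small interfering RNA (siRNA) pools, each at 50 nM, using a lipid reagent, and 3 arrays were made for each of 4 groups: a non-targeting control siRNA, siRNA against ETV6, siRNA against NFKB1, and the ETV6 and NFKB1 pools given at once (double siRNA). ETV6 encodes an ETS-family factor that mostly represses transcription, and NFKB1 the precursor of the NF-kB subunit p50. All groups are transfected cultures of this 1 cell line, for which the labels name no other treatment and no time after transfection, and the double siRNA group received a pair of siRNA pools where each other group received 1. Values are log2 levels of Affymetrix probe sets as deposited, so a difference of 1 is a doubling, and levels of different probe sets cannot be compared with each other. The number of arrays limits the precision, and the labels do not state whether a group's 3 arrays stem from separate cultures, so the p-values rest on how far these samples scatter, which may be technical.

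Sphingolipid synthesis begins when serine palmitoyltransferase joins serine to a fatty acyl group. Later steps give ceramide, which is turned into sphingomyelin or glucosylceramide or is cut by ceramidases into sphingosine. Sphingosine kinases then make sphingosine-1-phosphate, a signalling lipid that acts on its own receptors, and the lyase SGPL1 cleaves it irreversibly, the only exit from the pathway. In glioma biology ceramide is known mainly for promoting cell death, and sphingosine-1-phosphate for promoting growth and migration.

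The targeted genes were lower in the libraries labelled for them. ETV6, on its brighter probe set, was at 8.87 ± 0.26 (SD, n = 3) with control siRNA, 6.73 ± 0.11 with ETV6 siRNA, 8.70 ± 0.05 with NFKB1 siRNA and 7.36 ± 0.07 with double siRNA. NFKB1 was at 7.32 ± 0.15 with control siRNA, 7.81 ± 0.06 with ETV6 siRNA, 6.59 ± 0.47 with NFKB1 siRNA and 6.55 ± 0.05 with double siRNA, so every ETV6 siRNA array lay above every control array. Glioma and astrocyte markers were present: 9 of 10 listed markers had a probe set, VIM, GFAP, CD44, FABP7 and SOX2 lay above the 96th percentile of every array, and NES, SLC1A3, S100B and CHI3L1 lay lower, CHI3L1 down to the 40.1th. Their summed log2 levels ran from 105.06 to 106.09 with control siRNA, 105.04 to 105.50 with ETV6 siRNA, 104.01 to 104.57 with NFKB1 siRNA and 103.53 to 104.10 with double siRNA, where NES was at 10.17 ± 0.02 against 11.33 ± 0.19 in control. Of 14 markers of other cell types 3 had a probe set (COL1A1, KRT18 and MBP), between the 12.8th and 49.4th percentile, and the other 11 were not analysed here. Their summed log2 levels ran from 21.97 to 22.47 with control siRNA, 22.83 to 23.23 with ETV6 siRNA, 21.999 to 22.40 with NFKB1 siRNA and 21.96 to 22.17 with double siRNA. Within that last sum MBP was higher than in control (7.45 ± 0.05 against 6.73 ± 0.14), and KRT18 (7.35 ± 0.05 against 7.90 ± 0.16) and COL1A1 (7.24 ± 0.16 against 7.64 ± 0.20) were lower. The double siRNA arrays stood apart from the other 9 in measures outside the enzymes: poly-A spike-in RNA, which is added during sample preparation, read 7.97 to 8.05 against 8.37 to 9.35, array medians were 8.34 to 8.38 against 8.08 to 8.27, and the 3′ minus 5′ difference of the actin control probe sets was 2.05 to 2.16 against 1.52 to 1.91. The part of these measures and of the markers in the results was not tested. Control siRNA replicate 3 lay on the side of the double siRNA arrays for several enzymes, so comparisons of the 6 enzymes above the level for testing are also given without it where a change was called or is described.

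The stretch just before the transcription start is shown for the genes that differed most from control in the 3 comparisons, each as the 250 bases upstream of a RefSeq start in GRCh38.p14, 5′ to 3′ on the plus strand. SGPL1 (chr10:70815698-70815947) stood highest with ETV6 siRNA, UGCG (chr9:111896564-111896813) fell most with NFKB1 siRNA, and SPHK1 (chr17:76382954-76383203, the most upstream of its 3 starts in the table) was lowest with double siRNA. Capitals mark matches on either strand to GGG, any 5 bases and CC, a loose form of the NF-kB site.
SGPL1: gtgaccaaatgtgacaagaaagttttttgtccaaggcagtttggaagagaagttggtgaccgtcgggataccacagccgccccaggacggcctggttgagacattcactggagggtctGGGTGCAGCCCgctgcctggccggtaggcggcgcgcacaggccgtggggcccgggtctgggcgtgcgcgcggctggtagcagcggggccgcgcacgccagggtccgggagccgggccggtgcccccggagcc
UGCG: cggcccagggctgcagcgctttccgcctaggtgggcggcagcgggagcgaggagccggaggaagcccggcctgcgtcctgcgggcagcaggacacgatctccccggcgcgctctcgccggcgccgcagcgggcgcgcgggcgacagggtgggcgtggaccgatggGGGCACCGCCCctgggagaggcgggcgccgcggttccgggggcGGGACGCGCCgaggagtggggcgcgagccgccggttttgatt
SPHK1: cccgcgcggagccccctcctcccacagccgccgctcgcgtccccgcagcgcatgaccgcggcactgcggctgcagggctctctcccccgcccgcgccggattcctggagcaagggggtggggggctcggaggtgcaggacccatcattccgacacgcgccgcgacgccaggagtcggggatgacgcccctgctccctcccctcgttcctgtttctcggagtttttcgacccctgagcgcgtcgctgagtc

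The SGPL1 window held 2 overlapping matches to this pattern, the UGCG window 3, and the SPHK1 window shown 0, while the windows of the other starts of SPHK1 held 3 and 0. This pattern is loose: 54.4% of 35116 windows of the same length held it. CCGGAAG, a form of the ETS site, was found on neither strand of these windows, against 8.52% of all windows, and the ETS core GGAA, present in 92.7% of all windows, was found 1 time for SGPL1, 3 times for UGCG and 3 times for SPHK1. All 3 windows were rich in G and C, at 68.8%, 78.4% and 72.4%. A match describes letters only and is no evidence of binding.

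With ETV6 siRNA alone the enzymes other than SGPL1 stayed close to control. Of the 4 enzymes tested apart from SGPL1 and SPHK1 (SPTLC1, CERS2, UGCG and ASAH1), 1 was called, at a Benjamini-Hochberg adjusted p under 0.05 in limma, a linear model of all 12 arrays, and 10.7% of the 7759 genes tested were called. With NFKB1 siRNA 3 of the 4 fell, SPTLC1, UGCG and ASAH1, where 40.6% of genes were called and 25.1% were called lower. With double siRNA all 4 were called, but so were 80.8% of genes, so the count says little about the enzymes. Their directions were split: SPTLC1, UGCG and ASAH1 rose, with 31.9% of genes called higher, and CERS2 fell, with 49% called lower. The median log2 change of the 4 was -0.05, -0.33 and 0.62 in the 3 comparisons, and that of all genes tested was 0.00, 0.01 and -0.13. The 3 comparisons share the control arrays. In bulk RNA, fewer cells that express a gene and less of its RNA per cell cannot be told apart.

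**Figure D1:**
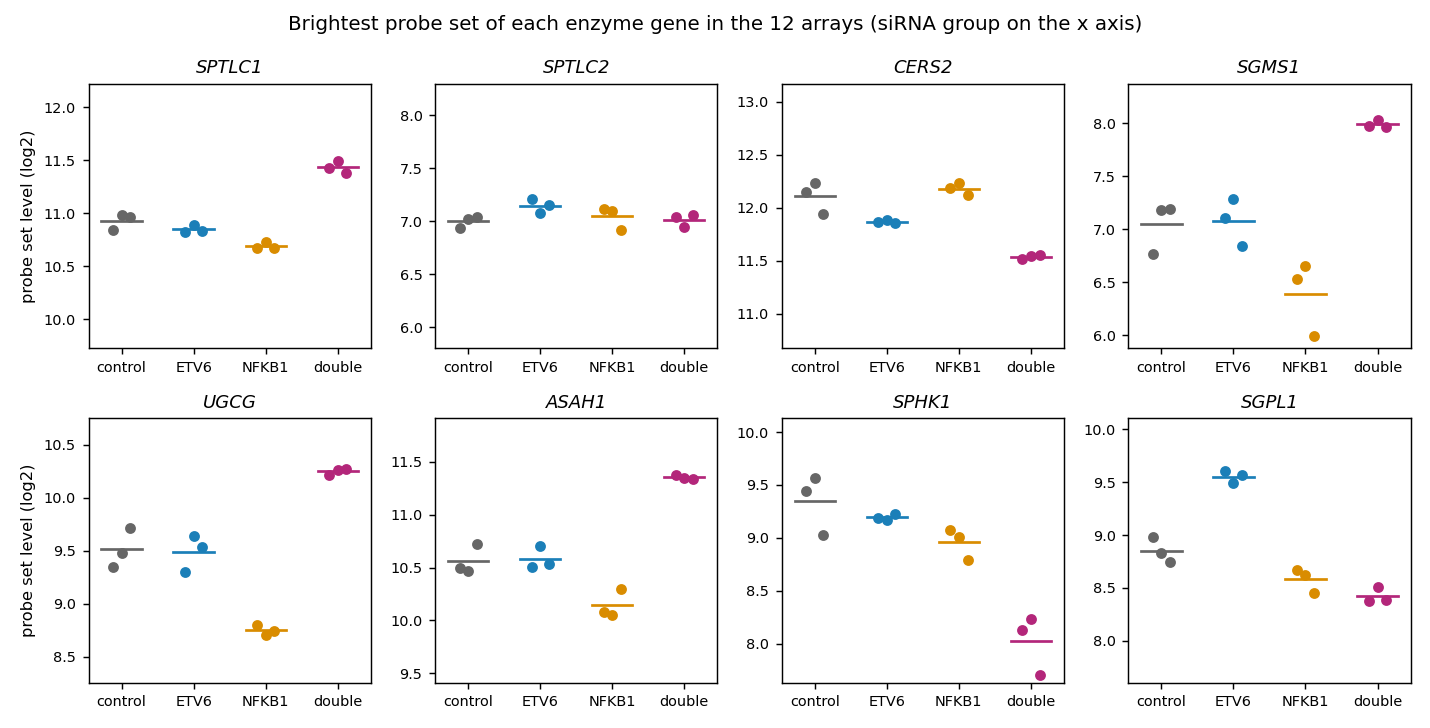
Levels of the brightest probe set of each of the 8 enzyme genes (log2, y axis, each panel spanning the same range of 2.5 around its gene's mean) in the 3 arrays of each siRNA group (x axis). Points are arrays and bars are group means; SGPL1 stands highest with ETV6 siRNA at 9.55, SPHK1 lowest with double siRNA at 8.02, and UGCG, ASAH1, SGMS1 and SPTLC1 are lowest with NFKB1 siRNA and highest with double siRNA.

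The entry step was represented by SPTLC1 and SPTLC2, the large subunits of serine palmitoyltransferase. SPTLC1, on its brighter probe set, read 10.84, 10.98 and 10.96 with control siRNA, 10.82, 10.89 and 10.84 with ETV6 siRNA, 10.67, 10.72 and 10.67 with NFKB1 siRNA, and 11.43, 11.50 and 11.38 with double siRNA. The double siRNA arrays lay above all others, and the NFKB1 siRNA arrays below all others. SPTLC1 rose 1.42-fold with double siRNA (log2 change 0.51 ± 0.05, SE, adjusted p = 6.44e-06; 0.53 without control siRNA replicate 3) and fell by 0.24 ± 0.05 with NFKB1 siRNA (adjusted p = 0.00401; -0.22 without that array). Its change with ETV6 siRNA, -0.08 ± 0.05, did not pass (adjusted p = 0.432). In the order of levels, NFKB1 siRNA came lowest, 0.16 ± 0.05 below ETV6 siRNA (adjusted p = 0.0315), but this last call was lost in 7 of 22 alternative settings, among them without ETV6 siRNA replicate 2 (0.14, adjusted p = 0.117) or 3, without any 1 of the NFKB1 siRNA arrays, and after array medians were made equal (0.08, adjusted p = 0.262).

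The dimmer SPTLC1 probe set showed the rise with double siRNA but not the fall with NFKB1 siRNA. It was at 7.27 ± 0.18 with control siRNA, 7.27 ± 0.11 with NFKB1 siRNA and 8.24 ± 0.12 with double siRNA (SD, n = 3). Tested on its own, its log2 change was 0.97 ± 0.10 with double siRNA (adjusted p = 1.1e-05) and 0.01 ± 0.10 with NFKB1 siRNA (adjusted p = 0.951). As the mean of both probe sets, SPTLC1 was at -0.12 with NFKB1 siRNA and was not called (adjusted p = 0.153). One more probe set, which names both MRPL51 and SPTLC1 and was left out for that reason, stayed between 9.06 and 9.24 over all arrays.

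SPTLC2 was dim, and its 4 probe sets did not agree. The brightest, between the 20.4th and 28.9th percentile of its arrays and under the level required for testing, read 6.94, 7.02 and 7.04 with control siRNA, 7.21, 7.08 and 7.15 with ETV6 siRNA, 7.11, 7.10 and 6.92 with NFKB1 siRNA, and 7.04, 6.94 and 7.06 with double siRNA. Without the requirement on level its log2 change was 0.15, 0.05 and 0.02 with ETV6, NFKB1 and double siRNA, and none was called (limma, adjusted p = 0.224, 0.595 and 0.83). A second probe set moved like UGCG below: it was at 6.64 ± 0.28 with control siRNA, 6.19 ± 0.15 with NFKB1 siRNA and 7.46 ± 0.06 with double siRNA. Tested on its own it fell by 0.45 ± 0.12 with NFKB1 siRNA (adjusted p = 0.0162) and rose by 0.82 ± 0.12 with double siRNA (adjusted p = 0.00013). The other two gave 0.39 and 0.15 with double siRNA.

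CERS2, the ceramide synthase for very long acyl chains, was the enzyme that fell with double siRNA among the 4 tested. Its single probe set read 12.15, 12.23 and 11.94 with control siRNA, 11.86, 11.88 and 11.86 with ETV6 siRNA, 12.19, 12.23 and 12.12 with NFKB1 siRNA, and 11.51, 11.54 and 11.56 with double siRNA. The control and NFKB1 siRNA arrays overlapped, the ETV6 siRNA arrays lay below both, and the double siRNA arrays lay below all. CERS2 fell by 0.57 ± 0.07 with double siRNA, to 67.3% of control (adjusted p = 1.35e-05; -0.65 without control siRNA replicate 3). With ETV6 siRNA it fell by 0.24 ± 0.07, to 84.6% (adjusted p = 0.0383; -0.32 without control siRNA replicate 3), but that call was lost in 13 of 22 alternatives. Leaving out any 1 array lost it, other than control siRNA replicate 3 or NFKB1 siRNA replicate 3, with the highest adjusted p of 0.121 without control siRNA replicate 2 (-0.18). With NFKB1 siRNA it was at 0.07 ± 0.07 (adjusted p = 0.393). Set directly against NFKB1 siRNA, ETV6 siRNA gave a lower CERS2 (-0.31 ± 0.07, adjusted p = 0.00408, 34.9% of genes called), and this call held in all 22 alternatives.

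Ceramide is passed on by SGMS1, a sphingomyelin synthase, and by UGCG, the glucosylceramide synthase. UGCG read 9.35, 9.47 and 9.71 with control siRNA, 9.30, 9.64 and 9.53 with ETV6 siRNA, 8.80, 8.71 and 8.74 with NFKB1 siRNA, and 10.22, 10.27 and 10.27 with double siRNA. Control and ETV6 siRNA arrays overlapped, every NFKB1 siRNA array lay below them and every double siRNA array above them. UGCG fell by 0.76 ± 0.10 with NFKB1 siRNA, to 59% of control (adjusted p = 0.000118; -0.66 without control siRNA replicate 3), a decrease larger than that of all but 4.09% of the genes tested. With double siRNA it rose by 0.74 ± 0.10, to 167% of control (adjusted p = 2.82e-05; 0.84 without control siRNA replicate 3), where 87.8% of genes had a lower value. With ETV6 siRNA the change was -0.02 ± 0.10 (adjusted p = 0.935). Between NFKB1 siRNA and double siRNA the difference was 2.83-fold (1.501 ± 0.10, adjusted p = 1.96e-07, 89.1% of genes called), and between ETV6 siRNA and double siRNA 0.76 ± 0.10 (adjusted p = 1.91e-05, 86.2% of genes called).

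The other 2 probe sets of UGCG moved the same way. With NFKB1 siRNA they gave -0.72 ± 0.08 and -0.66 ± 0.19, and with double siRNA 0.70 ± 0.08 and 0.61 ± 0.19. All 3 passed in both comparisons when every probe set was tested on its own, with 34.9% and 76.4% of 17313 probe sets called, and none passed with ETV6 siRNA, with 6.35% called.

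SGMS1 followed the same order, at a low level. Its only probe set, between the 9.5th and 43.2nd percentile of the arrays, read 6.76, 7.19 and 7.19 with control siRNA, 7.10, 7.28 and 6.84 with ETV6 siRNA, 6.53, 6.65 and 5.99 with NFKB1 siRNA, and 7.98, 8.03 and 7.97 with double siRNA. The NFKB1 siRNA arrays lay below all others and the double siRNA arrays above all others. SGMS1 was under the level required for testing. When that requirement was dropped, it fell by 0.66 ± 0.17 with NFKB1 siRNA (adjusted p = 0.0134, 36% of genes called) and rose by 0.95 ± 0.17 with double siRNA (adjusted p = 0.00044, 78.2% called), and ETV6 siRNA gave 0.03 ± 0.17 (adjusted p = 0.958, 7.99% called).

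ASAH1, the lysosomal acid ceramidase that releases sphingosine, had 3 probe sets, of which 2 followed the order seen for UGCG. The brightest read 10.50, 10.47 and 10.72 with control siRNA, 10.50, 10.71 and 10.54 with ETV6 siRNA, 10.08, 10.05 and 10.30 with NFKB1 siRNA, and 11.38, 11.35 and 11.33 with double siRNA. The control and ETV6 siRNA arrays overlapped, and the remaining groups lay apart on either side. ASAH1 fell by 0.42 ± 0.08 with NFKB1 siRNA, to 74.9% of control (adjusted p = 0.00266; -0.34 without control siRNA replicate 3), and rose by 0.79 ± 0.08 with double siRNA, to 173% (adjusted p = 8.45e-06; 0.87 without control siRNA replicate 3). ETV6 siRNA gave 0.02 ± 0.08 (adjusted p = 0.933).

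A second ASAH1 probe set gave -0.50 ± 0.09 with NFKB1 siRNA and 0.75 ± 0.09 with double siRNA. The last was nearly flat: it was at 9.72 ± 0.05 with control siRNA, 9.78 ± 0.09 with NFKB1 siRNA and 9.91 ± 0.04 with double siRNA. Its log2 change was 0.05 ± 0.06 with NFKB1 siRNA (adjusted p = 0.506) and 0.19 ± 0.06 with double siRNA (adjusted p = 0.0163). The brightest probe set has a suffix that Affymetrix uses where probes may bind other transcripts too.

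The effect of 1 siRNA was also set against its effect on top of the other, as an interaction in the same model, chosen after the data were seen. It was called for all 4 tested enzymes, and 86.3% of genes were called, so the count is near the background. On the flat probe set of ASAH1 the interaction was 0.05 ± 0.09 and was not called (adjusted p = 0.576). It was 1.52 ± 0.13 for UGCG (adjusted p = 3.97e-06), and 1.58 ± 0.24 for SGMS1 without the requirement on level (adjusted p = 0.000138, 85.2% of genes called). In both genes NFKB1 siRNA lowered the level when given alone, and the level was higher when it was added to ETV6 siRNA. The knock-down of ETV6 was not the same in both groups: ETV6 was 0.64 ± 0.11 higher with double siRNA than with ETV6 siRNA alone (limma, adjusted p = 0.000157).

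**Figure D2:**
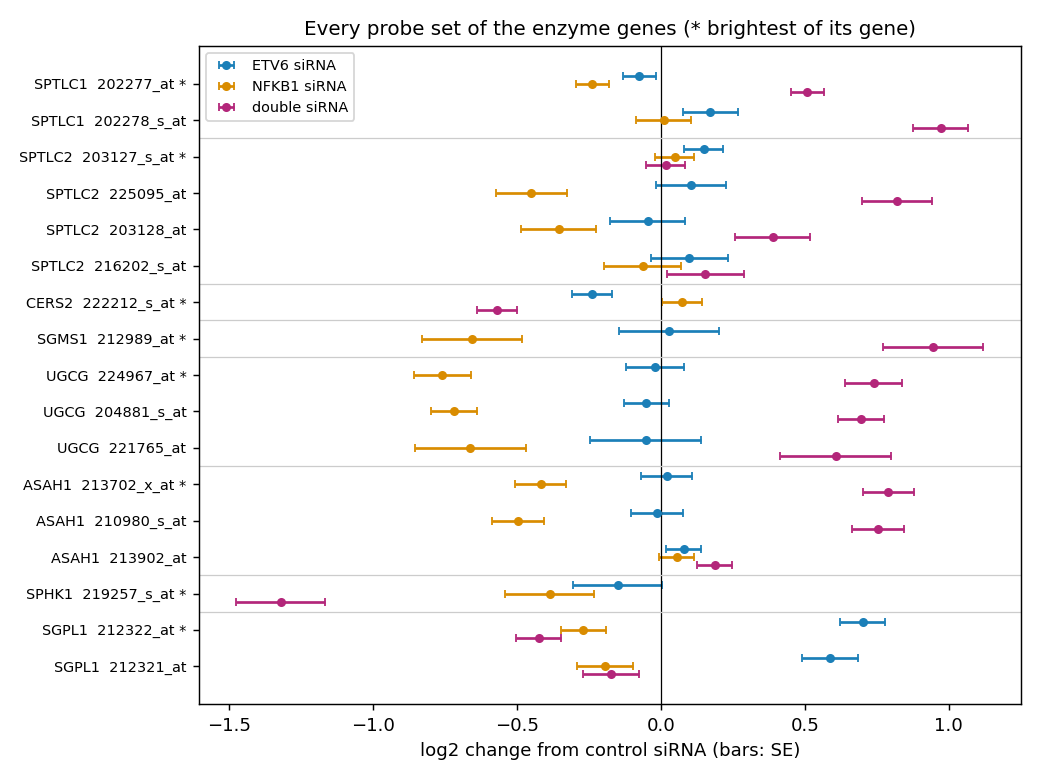
Log2 change from control siRNA (x axis, bars are SE) of each of the 17 probe sets of the 8 enzyme genes (y axis) with ETV6, NFKB1 and double siRNA. The 3 probe sets of UGCG lie close together in each comparison, while the 4 of SPTLC2 run from 0.02 to 0.82 with double siRNA and the 3 of ASAH1 from 0.19 to 0.79.

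SPHK1, which phosphorylates sphingosine to sphingosine-1-phosphate, was chosen for its low level with double siRNA. It read 9.44, 9.57 and 9.02 with control siRNA, 9.19, 9.16 and 9.23 with ETV6 siRNA, 9.07, 9.01 and 8.79 with NFKB1 siRNA, and 8.13, 8.23 and 7.70 with double siRNA. The double siRNA arrays lay below all others, while both single knock-downs overlapped control. Its level with double siRNA was 40% of control (-1.32 ± 0.15, SE), lower than the change of all but 0.0644% of the genes tested, and the value was -1.48 without control siRNA replicate 3. Against ETV6 siRNA alone it was at 44.4% and against NFKB1 siRNA alone at 52.3%. The means of the single knock-downs were 90.1% of control with ETV6 siRNA and 76.5% with NFKB1 siRNA. Control siRNA replicate 3 was the lowest of its group, and without it these log2 differences were -0.31 in place of -0.15, and -0.55 in place of -0.39.

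SGPL1, the lyase, was chosen for its high level with ETV6 siRNA. Its brighter probe set read 8.98, 8.83 and 8.75 with control siRNA, 9.60, 9.49 and 9.57 with ETV6 siRNA, 8.67, 8.62 and 8.46 with NFKB1 siRNA, and 8.38, 8.51 and 8.39 with double siRNA. All ETV6 siRNA arrays lay above all others, and the NFKB1 and double siRNA arrays overlapped each other below control. With ETV6 siRNA it was at 163% of control (0.70 ± 0.07, SE), and 99.97% of the genes tested had a lower value in that comparison. With NFKB1 siRNA it was at 82.9% and with double siRNA at 74.5% of control, so the high level was not seen when NFKB1 siRNA was given along with ETV6 siRNA. ETV6 itself was lowered less with double siRNA, to 35.1% of control against 22.6% with ETV6 siRNA alone, and the part of this was not tested. Without control siRNA replicate 3 the log2 differences of SGPL1 from control were 0.65, -0.32 and -0.48 with ETV6, NFKB1 and double siRNA. Double siRNA lay 1.13 ± 0.07 below ETV6 siRNA and 0.15 ± 0.07 below NFKB1 siRNA, and the last difference was 0.35 after array medians were made equal.

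The second SGPL1 probe set read 7.96, 7.97 and 7.90 with control siRNA, 8.60, 8.45 and 8.53 with ETV6 siRNA, 7.83, 7.91 and 7.50 with NFKB1 siRNA, and 7.81, 7.85 and 7.65 with double siRNA. The ETV6 siRNA arrays again lay above all others, at 0.59 ± 0.10 over control, whereas control and NFKB1 siRNA arrays overlapped. The difference of double siRNA from control was smaller than on the first probe set, at -0.17 ± 0.10 against -0.43 ± 0.08 when each probe set was fitted on its own.

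The genes whose levels ran closest to SGPL1 over the 12 arrays, by the root mean square difference after each gene was centred on its own mean, were ACKR3 (0.114), a scavenging chemokine receptor gene, SYNPO (0.137), an actin-binding protein gene, and HOXB3 (0.141), a homeobox gene. The median over the 7758 other genes was 0.439. ACKR3 was at 8.69 ± 0.11 with control siRNA, 9.41 ± 0.15 with ETV6 siRNA, 8.58 ± 0.25 with NFKB1 siRNA and 8.38 ± 0.06 with double siRNA. Closest to SPHK1 were MGLL (0.164), the monoacylglycerol lipase gene, PCK2 (0.170), the mitochondrial phosphoenolpyruvate carboxykinase gene, and LPXN (0.172), a focal adhesion protein gene, with a median of 0.497 over all other genes. MGLL was at 9.29 ± 0.19, 9.12 ± 0.07, 9.11 ± 0.04 and 8.11 ± 0.15 in the same order of groups.

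**Figure D3:**
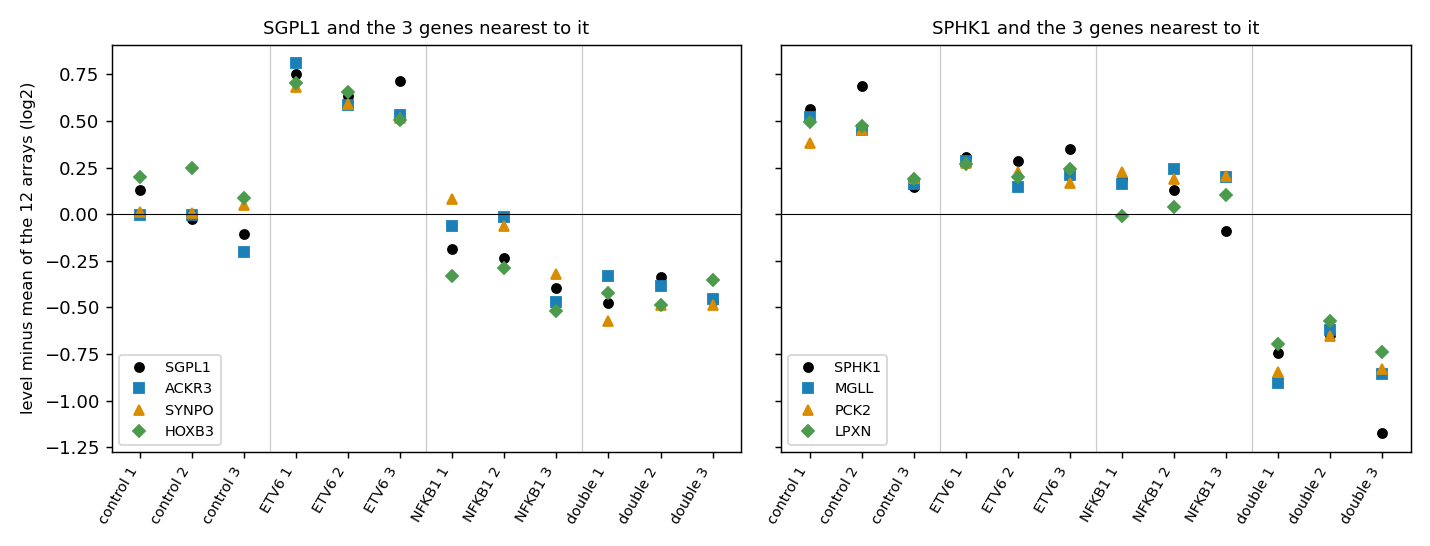
Level of SGPL1 and SPHK1 and of the 3 genes nearest to each, minus the gene's own mean over the 12 arrays (log2, y axis), in each array (x axis). SGPL1 and its neighbours are highest in the ETV6 siRNA arrays, and SPHK1 and its neighbours are lowest in the double siRNA arrays, where SPHK1 in replicate 3 lies furthest down.

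The wider pathway was read from 65 further sphingolipid genes, of which 42 had a probe set and 35 were tested. With ETV6 siRNA 1 rose and 5 fell, with a median log2 change of 0.00, where 4.38% of all genes tested were called higher and 6.28% lower. This count fell to 3 without control siRNA replicate 3, ETV6 siRNA replicate 1 or 3, or any 1 of the double siRNA arrays. SGPP1, a phosphatase that returns sphingosine-1-phosphate to sphingosine, fell by 0.54 ± 0.05 (adjusted p = 0.000301), with 8.46, 8.51 and 8.60 in control against 7.94, 8.04 and 7.97, and its second probe set ran the same way, from 7.84 to 7.19. UGT8, which makes galactosylceramide, fell 2.17-fold, from 7.91 ± 0.22 to 6.80 ± 0.30 (adjusted p = 0.000834). Its average over all arrays, 7.55, only just passed the level required for testing. It did so through the control and double siRNA arrays (8.19 with double siRNA), and lay under that level with ETV6 and NFKB1 siRNA (7.31 with NFKB1 siRNA). The call of UGT8 held in the 15 alternatives that tested it, fewer than for the other genes named here. SPTSSA, a small subunit of serine palmitoyltransferase, fell by 0.32 ± 0.08 (adjusted p = 0.0215, lost in 3 of 22 alternatives). S1PR1, a sphingosine-1-phosphate receptor, was the gene that rose, by 0.32 ± 0.09 (adjusted p = 0.0493), a call lost in 20 of 21 alternatives.

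With NFKB1 siRNA 11 of the 35 rose and 11 fell, where 15.5% of all genes were called higher and 25.1% lower. This split depended on the array scaling: it was 16 and 6 after array medians were made equal and 14 and 9 after quantile normalization, where the median of all genes was 0.10 and 0.07 against 0.01 as deposited. Among genes that act on ceramide, CERT1, which carries ceramide from the endoplasmic reticulum to the Golgi, fell from 8.15 ± 0.22 to 7.40 ± 0.08 (-0.75 ± 0.10, adjusted p = 0.000136). The ceramide synthase gene CERS6 fell by 0.66 ± 0.12 and the alkaline ceramidase gene ACER3 fell by 0.66 ± 0.16 (adjusted p = 0.00139 and 0.00651). For CERS6 this was the brightest probe set, and the dimmest also fell, from 7.41 ± 0.33 to 6.35 ± 0.43 (SD, n = 3). Its remaining probe set was flat, at 8.11 ± 0.02 with control siRNA and 8.10 ± 0.18 with NFKB1 siRNA. NEU1, a lysosomal sialidase gene, rose by 0.38 ± 0.07, GBA2, a glucosylceramidase gene, by 0.35 ± 0.10, and the ganglioside synthase gene B4GALNT1 by 0.32 ± 0.07 (adjusted p = 0.00138, 0.0158 and 0.00349). The call of GBA2 was lost in 3 of 21 alternatives, with the highest adjusted p of 0.061 without NFKB1 siRNA replicate 1.

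With double siRNA 10 of the 35 rose and 20 fell, with a median of -0.22 against -0.13 over all genes. With 80.8% of all genes called, 31.9% higher and 49% lower, this count is near the background. B3GNT5, which extends glycosphingolipids of the lacto series, rose 3.82-fold, from 6.83, 7.22 and 8.03 in control to 9.29, 9.24 and 9.35 (adjusted p = 1.67e-05). SAMD8, a relative of the sphingomyelin synthases, rose 3.14-fold from 7.45 ± 0.35 to 9.10 ± 0.02, and ACER3 rose 2.29-fold from 8.47 ± 0.41 to 9.67 ± 0.05 (adjusted p = 4.74e-06 and 3.36e-05). In B3GNT5, SAMD8 and ACER3 control siRNA replicate 3 was the highest control array. B3GNT5 and SAMD8 reached the average level required for testing only through the double siRNA arrays. With control, ETV6 and NFKB1 siRNA, B3GNT5 averaged 7.36, 7.31 and 6.94, and SAMD8 7.45, 7.37 and 6.85, all under that level. The starting point of these rises is therefore dim. PLPP2, a lipid phosphate phosphatase gene, fell by 0.79 ± 0.08, CPTP, which carries ceramide-1-phosphate, fell by 0.72 ± 0.09, and the lysosomal cholesterol transporter gene NPC1 fell by 0.66 ± 0.05, from 10.72 ± 0.08 to 10.06 ± 0.04 (adjusted p = 7.71e-06, 2.39e-05 and 2.27e-06).

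Genes listed under glycosphingolipid breakdown, mostly lysosomal, mostly ran opposite ways in 2 comparisons, which share the control arrays. The share of all genes that did so was not counted, and genes outside the list did so too. With control, NFKB1 and double siRNA, ORMDL2 was at 10.245, 10.516 and 9.931, and SMPD2 at 8.56, 8.79 and 7.96. The pattern is therefore not read as particular to the list. The list also held NPC1 and NPC2, which act in lysosomal cholesterol transport. Of 8 tested, 6 rose with NFKB1 siRNA and 1 fell, with a median of 0.17 against 0.01 over all genes and 15.5% of genes called higher. With double siRNA none rose and 6 fell, with a median of -0.27 against -0.13 and 49% of genes called lower. The counts were 7 and 0, and 0 and 6, after array medians were made equal. NPC1 did not run opposite ways: as deposited it was at 10.72 ± 0.08 with control siRNA, 10.51 ± 0.02 with NFKB1 siRNA and 10.06 ± 0.04 with double siRNA. GLA, the alpha-galactosidase A gene, was at 0.18 ± 0.04 and -0.48 ± 0.04, GM2A, which presents ganglioside GM2 for cleavage, at 0.21 ± 0.05 and -0.34 ± 0.05, and HEXA, a beta-hexosaminidase subunit gene, at 0.17 ± 0.05 and -0.24 ± 0.05. These 3 were named after their values were seen, and all 6 values passed the test. With ETV6 siRNA 1 of the 8 was called, GLA at -0.15 ± 0.04 (adjusted p = 0.0471), where 10.7% of all genes were called. None was called after array medians were made equal, and 2 were called higher and none lower after quantile normalization.

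Among the 9 tested genes of ceramide synthesis and transport, 4 rose and 4 fell with double siRNA, again near the 80.8% of all genes called. SPTSSA, CERS6, CERT1 and ORMDL1 rose, and CERS5, DEGS1, ORMDL2 and ORMDL3 fell. CERS6 was higher on its brightest and dimmest probe sets. On its remaining probe set it was lower, at 7.79 ± 0.10 with double siRNA against 8.11 ± 0.02 with control siRNA (SD, n = 3). CERS5 and CERS6 are ceramide synthase genes, and the ORMDL genes encode regulators of serine palmitoyltransferase. Of the 6 tested genes for removal, transport and sensing of sphingosine-1-phosphate, 1 rose and 2 fell with ETV6 siRNA, 1 rose and 3 fell with NFKB1 siRNA, and 2 rose and 3 fell with double siRNA, where 10.7%, 40.6% and 80.8% of all genes were called. These counts of higher and lower calls became 0 and 2, 1 and 1, and 1 and 3 after array medians were made equal, and 0 and 2, 1 and 2, and 1 and 3 after quantile normalization. SGPP1 was lower with either single siRNA (-0.54 and -0.33) and higher with both (0.34 ± 0.05, adjusted p = 0.000129), and the receptor gene S1PR3 was lower in all 3 comparisons (-0.26, -0.24 and -0.55). The ORMDL, CERS5, DEGS1 and S1PR3 genes were likewise named after their values were seen.

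**Figure D4:**
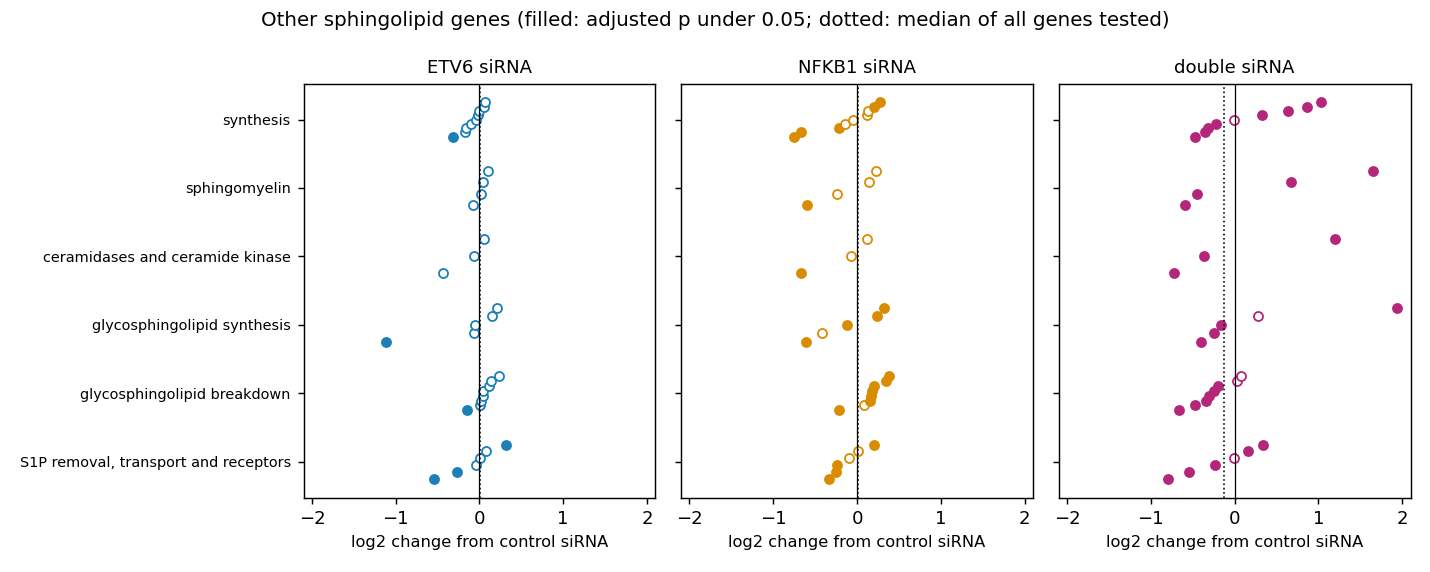
Log2 change from control siRNA (x axis) of the 35 tested genes of the wider sphingolipid pathway, by group (y axis), in the 3 comparisons. Filled points passed the test at an adjusted p under 0.05, and the dotted line is the median of all genes tested. The genes listed under glycosphingolipid breakdown, NPC1 and NPC2 among them, lie mostly to the right of 0 with NFKB1 siRNA (6 called higher). With double siRNA they lie mostly to the left (6 called lower).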

How the data were processed

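The authors deposited log2 probe set levels of 12 arrays, made per the labels' protocols from biotin-labelled cRNA of total RNA; background correction, summarization, normalization and the genome build are not given in the sources used here. Gene symbols came from the platform's probe table and were checked by Entrez identifier against RefSeq (17307 of 17313 single-gene probe sets matched, 0 updated). Each gene was read from its brightest probe set on average; those averaging below log2 7.54, the 25th percentile, were not tested, SPTLC2, SGMS1 and NFKB1 among them. In R 4.3.3, limma 3.58.1 fitted all group means in a single model (lmFit, eBayes), with two-sided tests and Benjamini-Hochberg adjustment over the 7759 genes of a comparison. With 3 arrays against 3 the smallest p of an exact permutation is 0.1. The fit was tested on simulated data. Groups came from the sample titles. No batch is given in the labels, and 0 pairs of arrays were identical.

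The enzymes, the wider lists and the tests were chosen with earlier results of these data known. The 9 enzymes were always named; of the wider list, the up to 3 highest and 3 lowest called changes of each comparison with control; for SGPL1 and SPHK1, the 3 nearest genes. Alternatives were 2 scalings, 2 filters, 2 uses of probe sets, array weights, trend and robust variances, a fit of the compared groups alone, a replicate block and each array left out. Promoter windows came from a table made from RefSeq (GRCh38.p14), in which 7 of the 9 enzymes were matched.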

Additional observations from a re-analysis of the deposited data

Results flagged for a closer look

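Some siRNAs shifted an enzyme one way when given alone and the other way on top of the other siRNA. With all 3 arrays on the same side of the mean they were compared with, this was seen for UGCG, ASAH1, SPTLC1, CERS2, SGMS1 and SGPL1 on their brightest probe sets. The share of all genes that turned in this way was not counted, so the turn is not read as particular to the enzymes. The difference between the effect alone and on top was tested as an interaction in limma, chosen after the data were seen. For this interaction 86.3% of all genes tested were called (85.2% without the requirement on level). UGCG was lower with NFKB1 siRNA alone (-0.76) and higher when it was added to ETV6 siRNA (0.76), a difference of 1.52 ± 0.13 (SE, adjusted p = 3.97e-06). The differences for ASAH1, SPTLC1 and CERS2 were 1.19 ± 0.12, 0.82 ± 0.07 and -0.40 ± 0.09 (adjusted p = 7.51e-06, 4.19e-06 and 0.0016). On 1 of the other probe sets of ASAH1 the difference was 0.05 ± 0.09 (adjusted p = 0.576), which did not show the turn. For SPTLC1 ETV6 siRNA gave -0.08 alone, which was not called (adjusted p = 0.432), and 0.75 on top of NFKB1 siRNA. On its second probe set ETV6 siRNA gave 0.17 ± 0.10 alone and NFKB1 siRNA 0.01 ± 0.10. On top of the other siRNA they gave 0.96 and 0.80, so neither turned, and the interaction was 0.79 ± 0.13 (adjusted p = 0.000276). The shift of CERS2 with NFKB1 siRNA alone, 0.07, was not called (adjusted p = 0.393) and was -0.00896 without control replicate 3. SGMS1, tested without the requirement on level, gave 1.58 ± 0.24 (adjusted p = 0.000138). For SGPL1 ETV6 siRNA gave 0.70 alone and -0.15 on top of NFKB1 siRNA, a difference of -0.86, which was not tested because the gene was chosen for its change. The double and NFKB1 siRNA arrays overlapped on this probe set. On the second SGPL1 probe set ETV6 siRNA gave 0.59 ± 0.10 alone and 0.02 ± 0.10 on top of NFKB1 siRNA, which shows no turn.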

How the results depend on the processing

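Of 24 results for the 4 tested enzymes in 6 comparisons, 20 were called, and 17 of these kept their call under all 22 alternatives, the exceptions being CERS2 with ETV6 siRNA and SPTLC1 with NFKB1 siRNA and between the single knock-downs. The number of these enzymes called with ETV6 siRNA, 1, was 0 after array medians were made equal, with no filter and with only the groups compared, and 0 to 1 with single arrays left out. Signs turned only in changes that were not called under either setting. With ETV6 siRNA SPTLC1 was at 0.0471 as the mean of its probe sets, and UGCG at 0.0471 with array weights and from -0.102 without control replicate 1 to 0.0786 without control replicate 3 (0.0728 without ETV6 replicate 1). ASAH1 ran from -0.0425 without ETV6 replicate 2 to 0.0993 without control replicate 3 (-0.0131 and -0.0285 without control replicates 1 and 2). With NFKB1 siRNA CERS2 was at -0.0135 with array weights, and ran from -0.00896 without control replicate 3 to 0.135 without control replicate 2.

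Of the wider list, 6 genes were called with ETV6 siRNA, against 3 with a filter at the 50th percentile, 3 as means of probe sets, 12 with array weights, 2 with only the groups compared, and 3 to 6 with single arrays left out, among them 3 without control replicate 3, without ETV6 replicate 1 or 3, or without any double siRNA array. The filter at the 50th percentile, which tests fewer genes, gave 12 in place of 22 with NFKB1 siRNA, 16 in place of 30 with double siRNA, 15 in place of 30 and 17 in place of 31 for double against ETV6 and NFKB1 siRNA, and 7 in place of 13 for ETV6 against NFKB1 siRNA, which was 20 with array weights. NFKB1 siRNA gave 11 with only the groups compared. With the replicate block the counts were 4, 22 and 30 in the comparisons with control, and the enzymes' counts were the same as without it. Whether the numbers pair the samples was not settled. The correlation of deviations from group means ran from -0.52 to 0.48 in 18 same-numbered pairs and from -0.52 to 0.64 in 36 others. Deviations cancel out within a group of 3, which forces both signs, so these ranges cannot decide it. With the block the SE of the change with ETV6 siRNA was smaller, 0.108 in place of 0.151 for SPHK1 and 0.045 in place of 0.052 for SPTLC1. Except where a setting tests fewer genes or arrays, the cause of these moves was not tested.

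Over all genes, 827 called with ETV6 siRNA became 2341 with array weights, 186 with only the groups compared, and 437 and 473 without ETV6 replicates 1 and 3. The 3147 with NFKB1 siRNA became 1855 with only the groups compared, and the 2709 between single knock-downs 4330 with array weights and 1663 without ETV6 replicate 2. The filter at the 50th percentile gave 4424, 4562 and 4417 in place of 6685, 6911 and 6698 for double against each single knock-down and the interaction, and every probe set on its own gave 5134, 10297, 11029, 11477, 4281 and 11051 in place of 3147, 6273, 6685, 6911, 2709 and 6698. Shifting medians turned the share of calls that were higher with NFKB1 siRNA from 38.1% to 62.2%. SPTLC2 and SGMS1 were too dim to be tested with the others.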
